A study of Rattus norvegicus with 6 samples.

Results

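The genes of the cytosolic ribosomal proteins were examined in rat hippocampus after mild or intense treadmill training. They were found by name: a probe was taken when its gene name on the array, without the endings for predicted or mapped genes, was Rpl or Rps followed by a number, or Rplp0, Rplp1, Rplp2 or Rpsa, and the S6 kinases were left out. Of 41012 probes on the array, 112 carried such a name and stood for 75 of 35561 gene names, 44 of the large subunit (67 probes) and 31 of the small subunit (45 probes). The rule itself used no measured value, though it was set with earlier results of these data known.

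RNA came from male Wistar rats, 11 weeks old at the start, in 3 groups. Sedentary controls (CONT) rested on the treadmill, mild exercise (ME) rats ran at 15 m/min, below the lactate threshold, and intense exercise (IE) rats ran at 40 m/min, above it. Both exercise groups trained for 6 weeks, 60 min/day, 5 times/week, with 1 week of habituation for ME and 4 for IE by means of weak electric shocks, and some IE rats that would not keep the speed were later given more of them. Tissue was taken 24 or 36 h after the last session according to the sample records, while the methods give a longer delay.

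Hippocampal RNA of 5 rats was pooled in each group. Each of the 3 pairs of pools (ME vs CONT, IE vs CONT and, on its own slide, IE vs ME) was run on 2 two-colour arrays with the dyes Cy3 and Cy5 swapped, so the 2 arrays measured the same pools again and no test across rats could be made. Ratios are given as log2 and were turned so that a positive value is higher with exercise, or with IE over ME. Errors are the SD between the 2 arrays (n = 2) and, on this reading, measure the technique, not the rats. Both comparisons against CONT used its single pool, going by the methods, and the same slide, whereas IE vs ME lies on another slide.

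A cytosolic ribosome joins a small subunit, which reads the mRNA, with a large subunit, which forms the peptide bonds, and nearly all of its proteins are present once in each particle. Their mRNAs are abundant in every growing or protein-making cell, neurons included, where synapses depend on new protein. Most of them begin with a C and a run of pyrimidines, the terminal oligopyrimidine (TOP) motif, through which mTOR signaling adjusts their translation without needing a change in mRNA amount. The arrays measure mRNA amount only, and in pooled tissue fewer cells and less RNA per cell cannot be told apart.

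The TOP start is shown because it is the feature that these mRNAs are known to share. Start windows of RefSeq (GRCr8) were found for 60 of the 75 genes, in 61 windows, and 23 of them (37.7%) had a C at the annotated start followed by 4 bases that were each C or T, against 2.63% of all 33469 windows. The match was sought on the transcribed strand only, and within 10 bases of the start it was found in 73.8% of the members' windows and in 28.9% of all windows. In the following lines the capitals mark the unbroken pyrimidine run from the annotated start on, with 10 bases before it.
Rplp1 (stalk protein P1, chr8:71290853-71290882, minus strand): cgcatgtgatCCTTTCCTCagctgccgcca
Rps7 (small subunit, chr6:50999426-50999455, minus strand): agagctgtgtCTCTTTCTaagccggcactc
Rpl28 (large subunit, chr1:78083513-78083542, minus strand): cccctagtgtCTTTCTTTCCgtctccggcc
Rpl10 (large subunit, chrX:157205840-157205869, plus strand): gtgggagcgtCTCTTTTCCTCTggcgcggt

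The median of the group stayed near 0 in every comparison, and no member met the threshold used here. The median log2 ratio of the 112 probes was -0.0096 in ME vs CONT (0.0041 on array 1 and -0.018 on array 2), 0.0086 in IE vs CONT (0.0045 and 0.00015) and -0.0070 in IE vs ME (-0.081 and 0.057). Over all probes well above background the medians were -0.0025, 0.0018 and 0.0028. The threshold took the study's fold limits and its p limit and applied them to each array, which the methods do not spell out: Cy5/Cy3 of at least 1.5 on 1 array and at most 0.75 on the other, with the software's p below 0.01 on both. This threshold, fold range and p together, was met by 0 of 112 members in each comparison. It was met by 0.122% of all probes in ME vs CONT, 0.0293% in IE vs CONT and 0.0732% in IE vs ME, so with shares this low 0 of 112 says little by itself. Without the p threshold, or with the mean fold of each pair in place of the ratio on each array, the count of members was also 0 in each comparison. Once p was dropped, the fold range still held few probes of the whole array. ME vs CONT had 404 such probes out of 40922, IE vs CONT had 273 out of 40957, and IE vs ME had 435 out of 41009. Here too, 0 of 112 says little by itself. For the mean fold, no share over all probes is given.

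Mean ratios of single members lay close to 0. In ME vs CONT all 112 lay within 0.1 on the log2 scale, from -0.078 (0.947-fold, Rpl28) to 0.051 (1.04-fold, Rpl27). In IE vs CONT 107 of 112 lay within this limit, with the lowest at -0.19 (0.875-fold, Rpl28). IE vs ME had 107 of 112 within it, with extremes of -0.32 (0.801-fold, Rpl28) and 0.23 (1.18-fold, Rpl37a). As shares of the members these were 100%, 95.5% and 95.5%. Among other probes of like brightness 97.9%, 96.2% and 95.3% lay within the same limit, so it does not set the members apart. The SD of the members' means was 0.030, 0.044 and 0.055 in the 3 comparisons, beside 0.047, 0.045 and 0.064 for other probes of like brightness and 0.107, 0.095 and 0.110 for all probes well above background.

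Few members kept 1 direction on both arrays. In ME vs CONT, 5 of 112 were higher on both arrays and 14 were lower on both, against 12.8% and 14.2% of all probes. In IE vs CONT, 13 were higher and 12 lower on both arrays, against 13.5% and 13.0% of all probes. In IE vs ME, 4 were higher and 9 lower, against 11% and 12.0% of all probes. As shares of the members these were 4.46% and 12.5% in ME vs CONT, 11.6% and 10.7% in IE vs CONT, and 3.57% and 8.04% in IE vs ME, each under that of all probes. Among other probes of like brightness the shares were 10.1% and 10.2%, 11.8% and 10.3%, and 12.3% and 11.7%, so that the members lower in ME vs CONT and IE vs CONT stood slightly above them. The remaining 93, 87 and 99 members changed sign with the dyes.

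**Figure D1:**
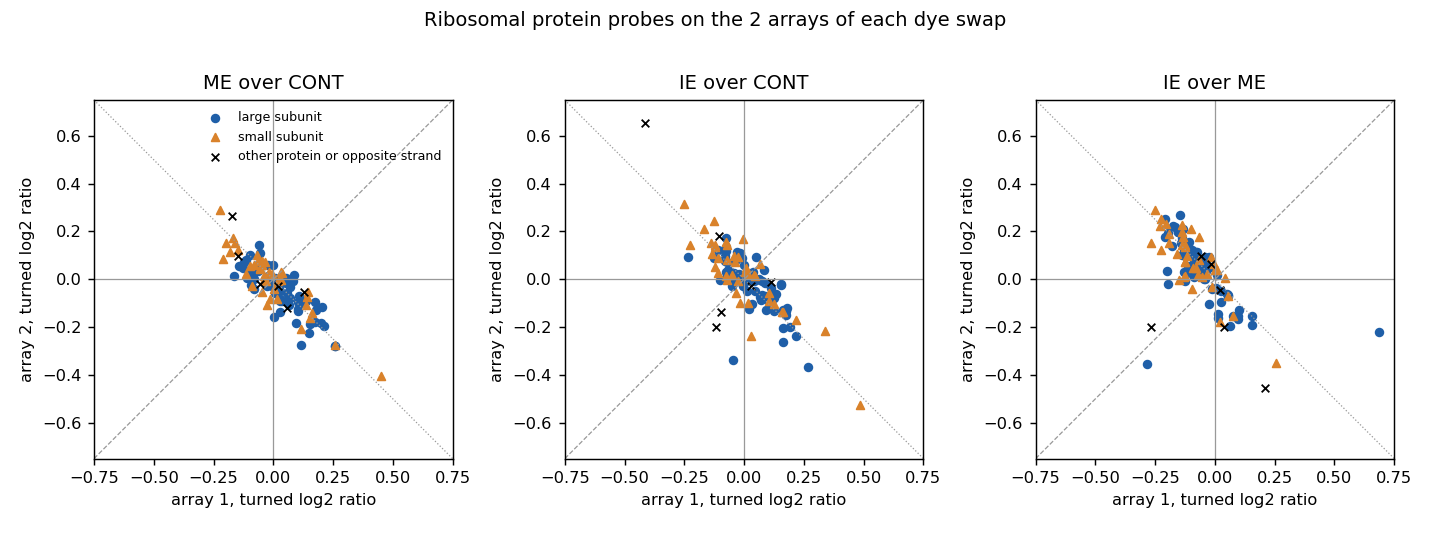
Turned log2 ratio of each of the 112 member probes on array 1 (x axis) and array 2 (y axis) of the dye swap, for ME over CONT, IE over CONT and IE over ME. Points on the dashed line would have the same ratio on both arrays; most members lie along the dotted line instead, where the ratio turns over with the dyes, and the point farthest below 0 on both axes in IE over ME is a Rpl28 probe.

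Most of each single ratio followed the dye. Across the 112 members the ratios on the 2 arrays of a pair ran opposite to each other, with r = -0.86 in ME vs CONT, -0.79 in IE vs CONT and -0.65 in IE vs ME, as a description across probes. The dye component, the mean log2 Cy5/Cy3 of a pair whichever pool carried Cy5, was by construction the larger part in every member that changed sign. Among probes with a processed signal of 1000 or more, the largest positive one was that of Rps23, a protein at the decoding site. Rps23 read 0.45 on array 1 and -0.40 on array 2 in ME vs CONT, 0.49 and -0.52 in IE vs CONT, and 0.26 and -0.35 in IE vs ME. Its means were 0.025 ± 0.60, -0.019 ± 0.71 and -0.047 ± 0.43, near 0 although each array alone was far from it. Rps15, another small subunit protein of the decoding region, went the other way, with -0.22 and 0.29, -0.25 and 0.31, and -0.23 and 0.25 on arrays 1 and 2.

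The dye component of a member was much alike on the arrays of 1 slide. Its correlation across the 112 members was 0.93 between the ME vs CONT and IE vs CONT pairs, with the same sign in 101 of 112, and 0.58 and 0.43 between these pairs and the IE vs ME pair on the other slide. These pairs share pools and probes and, for the value of 0.93, the slide. In IE vs ME the median dye component of the members was -0.069, against 0.010 and 0.0014 in the pairs against CONT.

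**Figure D2:**
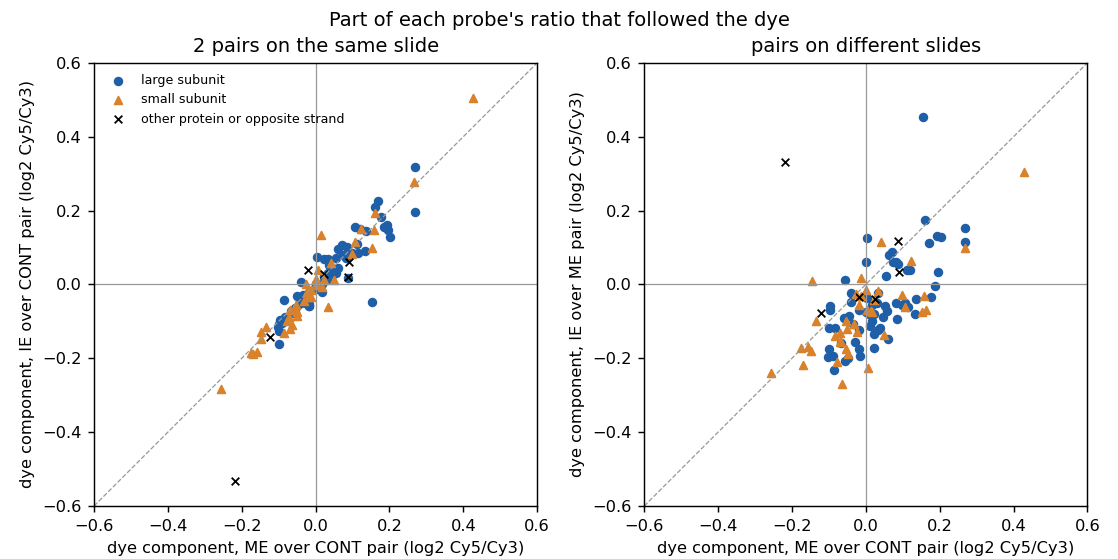
Dye component (mean log2 Cy5/Cy3 of the 2 arrays) of each member probe in the ME over CONT pair (x axis) against the IE over CONT pair on the same slide (left) and the IE over ME pair on the other slide (right). The dashed line marks equal values; the point at 0.43 and 0.51 on the left is Rps23.

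By place in the ribosome, the means were small and their SDs mostly larger. Proteins of the mRNA entry and decoding region were Rps2, Rps3, Rps9, Rps15 and Rps23 (9 probes). Their median was -0.0038 in ME vs CONT, 0.0066 in IE vs CONT and 0.021 in IE vs ME. The 9 include a dim Rps15 probe on the strand opposite to the mRNA, and the median of 0.021 is that probe's own mean. Rps6, the protein that S6 kinase phosphorylates, read 0.14 and -0.11 in ME vs CONT, 0.16 and -0.14 in IE vs CONT and 0.055 and -0.071 in IE vs ME, and so changed sign in every pair. Rps27a, made as a fusion with ubiquitin, had means of -0.0073 ± 0.38, 0.059 ± 0.39 and -0.080 ± 0.14. Both probes of Rpsa, also known as the laminin receptor, had a mean of -0.046 in ME vs CONT, with 1 of them lower on both arrays (-0.012 and -0.080) and the other not (-0.11 and 0.022). In IE vs CONT they differed in sign, at 0.034 and -0.014.

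The stalk of the large subunit recruits elongation factors. Its protein P1 was the most repeated measurement, since the Rplp1 probe was printed as 10 spots per array. It read -0.017 on both arrays in ME vs CONT and 0.021 and 0.020 in IE vs CONT. The SD between its single spots on 1 array ran from 0.037 to 0.094. In IE vs ME it read 0.027 and -0.093. Rplp2 had means of 0.020 ± 0.048, 0.031 ± 0.042 and -0.0061 ± 0.18. Rplp0 stands on the array only under an older name and was outside the naming rule.

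Around the peptidyl transferase center, all 4 probes of Rpl3, Rpl8 and Rpl10 had negative means in ME vs CONT, from -0.040 to -0.016, but only 1 of them, for Rpl10, was lower on both arrays (-0.014 and -0.018). In IE vs CONT the same 4 ran from -0.053 to 0.0057, and in IE vs ME from -0.030 to 0.022. Proteins of the exit tunnel and its opening (Rpl4, Rpl17, Rpl19, Rpl23a, Rpl26, Rpl31, Rpl35 and Rpl39, 13 probes) had medians of -0.013, 0.023 and -0.018. Rpl19 had the highest mean of this group in IE vs CONT: 1 probe read 0.051 and 0.093 and the other 0.036 and 0.032, both higher on both arrays. Both Rpl19 probes were near 0 in ME vs CONT, with means of -0.017 ± 0.025 and -0.013 ± 0.025, and at -0.011 ± 0.099 and 0.018 ± 0.14 in IE vs ME. Rpl5 and Rpl11, which travel with the 5S rRNA and can bind Mdm2, had means between -0.020 and 0.028 in the pairs against CONT on their 4 probes.

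**Figure D3:**
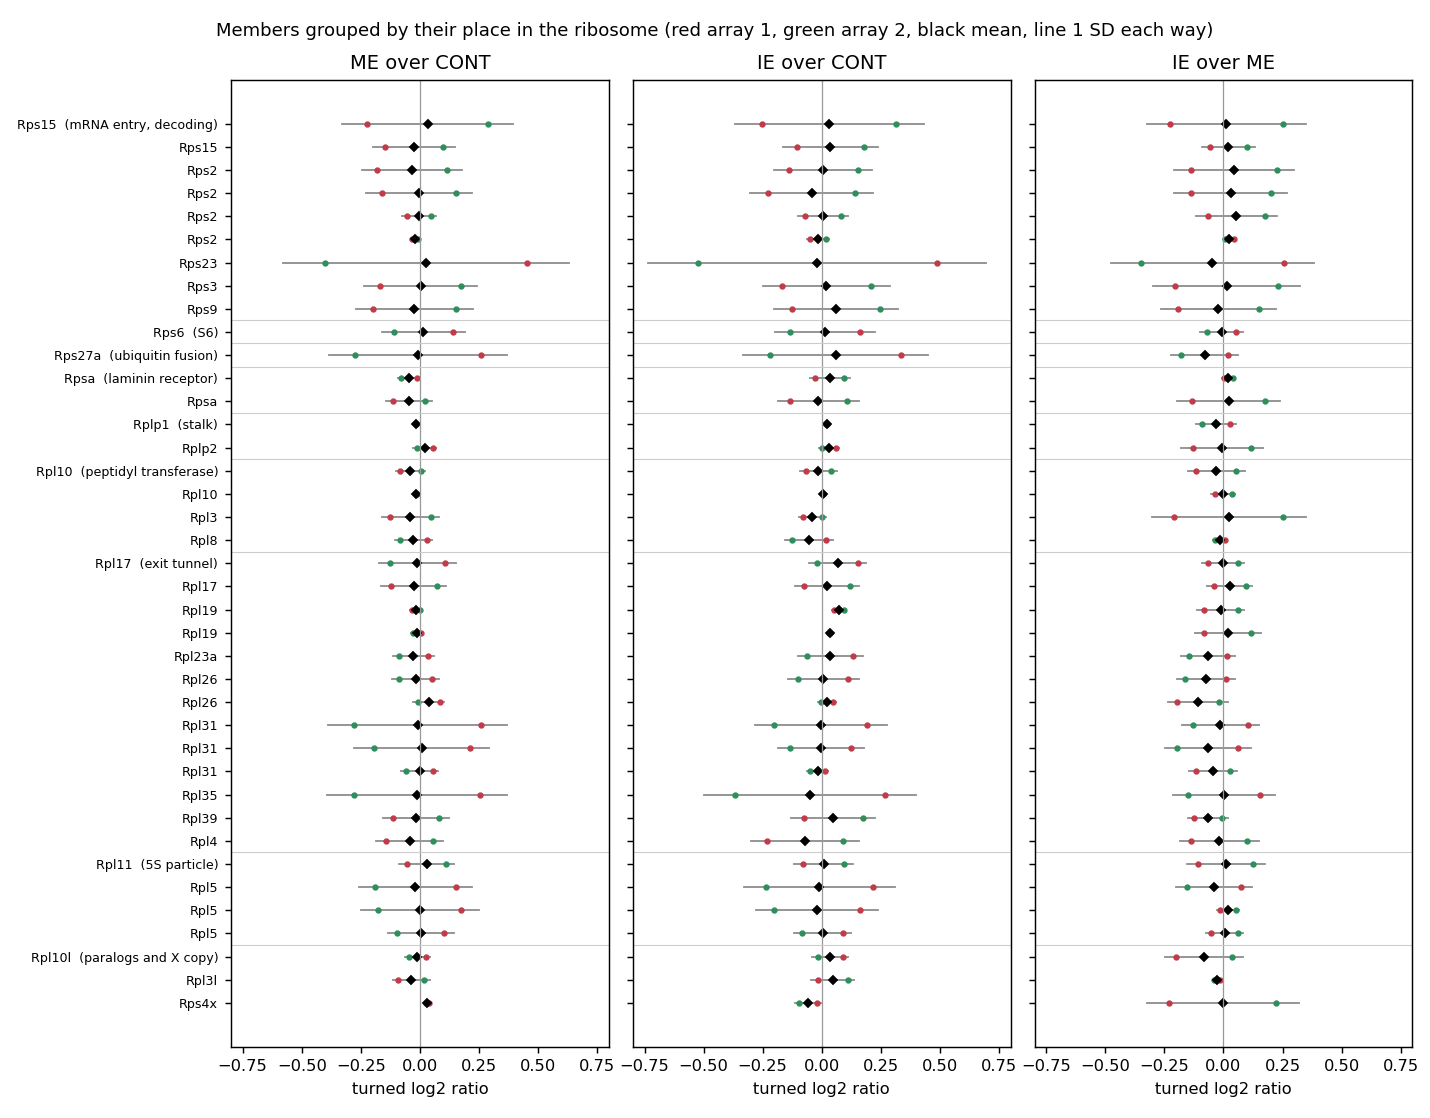
Turned log2 ratio of each probe of the members with a named place in the ribosome, for the 3 comparisons (panels). Red and green points are arrays 1 and 2, black diamonds their mean and lines 1 SD to each side (n = 2 arrays); the diamond farthest from 0 is -0.11 (Rpl26), while the arrays of Rps23, Rps15, Rps27a, Rpl31 and Rpl35 spread far to both sides.

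Genes used as references for PCR were among the members. Rpl13a read -0.079 and -0.041 in ME vs CONT (mean -0.060 ± 0.027, 0.959-fold), -0.074 and 0.030 in IE vs CONT, and -0.11 and 0.14 in IE vs ME. Rps18 had means of -0.034 ± 0.070 and -0.046 ± 0.015 against CONT and was lower on both arrays only in IE vs CONT (-0.036 and -0.057). Rpl32 had means of -0.0032 ± 0.027 and 0.022 ± 0.084 against CONT. Over the 5 probes of these genes, Rpl19 included, the mean farthest from 0 was 0.072, that of a Rpl19 probe in IE vs CONT. Among the paralogs, Rps4x, the S4 gene of the X chromosome, read 0.037 and 0.026 in ME vs CONT but -0.018 and -0.098 in IE vs CONT. Rpl3l and Rpl10l, known from muscle and testis, had means of -0.037 ± 0.079 and -0.011 ± 0.053 in ME vs CONT and 0.047 ± 0.090 and 0.036 ± 0.075 in IE vs CONT.

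Among members with the same sign on both arrays, those farthest from 0 in ME vs CONT were bright probes with small ratios. The lowest were Rps29 (-0.027 and -0.11), Rpl13a, and 1 of the 5 Rpl21 probes (-0.093 and -0.025). At the other end stood Rpl27 (0.086 and 0.017), Rps4x, and Rps7 (0.033 and 0.030). The software's p for these 6 members was between 0.59 and 0.93 on every array. Among the highest in IE vs CONT were Rpl19 and Rpl18 (0.081 and 0.040), with p between 0.65 and 0.85. In IE vs ME the highest were Rps2 (0.043 and 0.0068), Rps7 (0.0073 and 0.038) and Rpsa (0.0016 and 0.040). Rps7 was thus higher on both arrays of ME vs CONT, IE vs CONT (0.045 and 0.014) and IE vs ME, and the software's lowest p for it over these 6 arrays was 0.83.

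In both comparisons with IE the lowest member was of another kind. A Rpl28 probe read -0.045 and -0.34 in IE vs CONT (mean -0.19 ± 0.21) and -0.29 and -0.35 in IE vs ME (mean -0.32 ± 0.048, 0.801-fold). The array software's p for it was between 0.14 and 0.84. The probe lies at chr1:67847229-67847288 (rn3, minus strand), 1417 bases downstream of the other Rpl28 probe, and had a processed signal of 53.0 to 74.5. The other Rpl28 probe, at chr1:67848705-67848764, had means of 0.021 ± 0.072, 0.033 ± 0.058 and 0.035 ± 0.084. The probes that carry the gene's name therefore disagreed in sign, and the dim one was lower on both arrays in the pairs with IE only (0.12 and -0.27 in ME vs CONT).

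Some probes under a member's name were of other design. Rpl37 and Rps15 each had a probe on the strand opposite to the mRNA. The Rpl37 pair gave -0.078 ± 0.12 for the mRNA probe and 0.039 ± 0.13 for the opposite strand in ME vs CONT. Without the 6 probes that lie on an opposite strand or whose description on the array names another protein, the medians of the remaining 106 were -0.0096, 0.0086 and -0.0066, and 13, 10 and 8 members were lower on both arrays. This choice was made after the values had been seen.

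The means farthest from 0 belonged to dim probes in both comparisons with IE. In ME vs CONT, 103 of the 112 probes had a processed signal of 1000 or more, and in IE vs ME 100 had. Their means ran from -0.078 to 0.051 in ME vs CONT, from -0.10 (Rps20) to 0.082 (Rps24) in IE vs CONT and from -0.11 (Rpl26) to 0.062 (Rpl18) in IE vs ME. All of the 12 dimmer probes of IE vs ME together ran from -0.32 to 0.23. The highest value there, for Rpl37a, came from array 1 alone (0.69) and had the opposite sign on array 2 (-0.22). The software's p was 0.0092 on array 1 and 0.37 on array 2, for pools without replicates. That probe was designed on a predicted transcript described as similar to L37a.

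**Figure D4:**
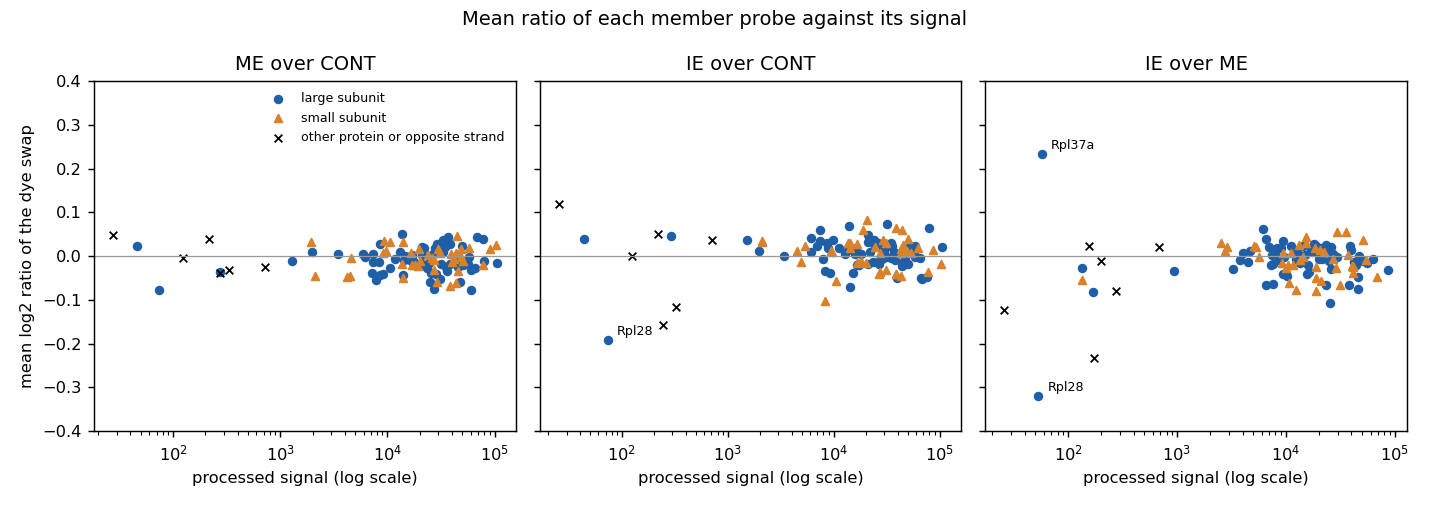
Mean turned log2 ratio of each member probe (y axis) against its processed signal (x axis, log scale) in the 3 comparisons. Probes with a signal of 1000 or more lie between -0.11 and 0.082, and the labelled points (Rpl28, Rpl37a) all have a signal under 1000.

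Probes of the same gene were compared with each other. For the 25 genes with several probes, the means of a gene's probes differed by a median of 0.023 in ME vs CONT, 0.039 in IE vs CONT and 0.028 in IE vs ME, and had unlike signs in 14, 14 and 8 of the 25. Rpl21, with 5 probes, ran from -0.059 to 0.0058 in ME vs CONT, from -0.019 to 0.028 in IE vs CONT and from 0.0025 to 0.013 in IE vs ME. Rps2, with 4, ran from -0.033 to -0.0029, from -0.042 to 0.0066 and from 0.025 to 0.054. Of the 112 probes, 13 (for 8 genes) shared a run of 30 bases or more with a probe of another name, and GRCr8 lists 839 pseudogenes with ribosomal protein names, so a probe's signal may include near-identical copies. The 351 other probes described as similar to a ribosomal protein had medians of -0.0091, 0.0085 and -0.00059, and 0 of them met the fold range with p in any comparison.

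The direct comparison of IE with ME was set beside the difference of both against CONT. Across the 112 members these estimates had r = 0.26 as a description, the same sign in 57 of 112 and a median gap of 0.038. Rpl28 (dim probe) stood at -0.11 through CONT and -0.32 directly. Without the 6 probes of other design, r was 0.18.

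Genes that act with these proteins also had medians near 0. Of 71 probes for mitochondrial ribosomal proteins (Mrpl and Mrps), 0 met the fold range in any comparison, and their medians were -0.0045, 9.7e-05 and -0.014. Medians for elongation factors and genes of like name (11 probes, Eef2k and Eef1e1 included) were -0.010, -0.016 and 0.0049. Initiation factors and genes of like name (59 probes, Eif4ebp2 included) had medians of -0.0031, -0.016 and -0.013. Ribosome biogenesis genes (39 probes) had medians of -0.0053, -0.0061 and 0.013. Other mRNAs with a TOP start (18 probes) had medians of -0.0092, 0.00029 and 0.0033. For mTOR, its partners and the S6 kinases (19 probes) they were -0.0098, -0.018 and 0.0077. No probe of these lists met the fold range. The means farthest from 0 included Mrpl34 at -0.28 and Utp14a at -0.30 in ME vs CONT. Rps6ka6, a ribosomal S6 kinase, stood at -0.47 in IE vs ME. At the other end, the highest mean was 0.22, for Eif4ebp2 in ME vs CONT. A probe of the same gene had the lowest mean of the initiation list in IE vs CONT, at -0.27. The array values and signals behind these means are not given here. In IE vs ME, 16 of the 19 probes of the mTOR list were well above background.

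Markers of other tissue differed between the pools. All 17 probes for markers of the meninges were higher on both arrays of ME vs CONT, with a median of 0.92, against -0.011 in IE vs CONT and -0.91 in IE vs ME, and 11, 0 and 10 of them met the fold range. Choroid plexus markers (17 probes, 9 well above background in ME vs CONT) had medians of 0.10, 0.33 and 0.23. Of these probes, 3, 4 and 2 met the fold range with p, all higher. Cerebellum markers (10 probes) had medians of 0.13, 0.0038 and -0.24, and 1, 0 and 0 of them met the fold range with p. By median, the meninges markers were thus highest in the ME pool and the choroid plexus markers in the IE pool. Not all choroid plexus probes went this way. In IE vs ME 9 were higher on both arrays, 1 was lower and 7 changed sign. On both arrays, 7 were higher and 2 lower in ME vs CONT, and 11 were higher and 2 lower in IE vs CONT. All 17 probes for hippocampal markers were well above background against CONT, and 16 were in IE vs ME. Their medians were -0.018, -0.0036 and 0.068, and 0 of them met the fold range in any comparison. In IE vs ME 8 of these 17 were higher on both arrays, 0 were lower and 9 changed sign. Against CONT, 2 were higher and 2 lower on both arrays with ME, and 0 were higher and 4 lower with IE. The part of the other tissue in the members' ratios was not tested. On all arrays together, 66.5% to 74.4% of spots were well above background, and all 112 members were so in every reading except for 1 probe in IE vs ME. No member spot was saturated, and 1 or 2 of the members' spots on an array were left out as outliers.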

How the data were processed

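Pooled hippocampal RNA was compared on 6 two-colour arrays, 2 per comparison with the dyes swapped. The authors scanned them and extracted spots with Agilent Feature Extraction (9.5.3.1 for the slide with CONT and, per the file headers, 11.0.1.1 for IE vs ME), which subtracted background and normalized the dyes by LOWESS. The deposited log ratios are log10 of Cy5 over Cy3. The p-value deposited with each compares 2 pools on 1 array. The deposited processed signal is an intensity on a linear scale. The authors' value table holds the same log10 ratios, equal for 100.0% of spots within 0.001, with the second array of each pair already turned.

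Control spots and outlier flags were left out, spots of a probe averaged, ratios turned and converted to log2, and the 2 arrays averaged. They count as 1 replicate: the methods describe 1 pool per group, although the sample records number the pools by array. A probe was called when Cy5/Cy3 reached 1.5 on 1 array, was 0.75 or less on its dye swap, and both p-values were under 0.01. The limits are the study's, and their use on each array was chosen here. A role was given to members by lists, and the 3 highest and 3 lowest members of equal sign on both arrays were named, and some that this rule would name are not reported here. The members and lists were chosen with earlier results of these data known. Rplp0 (as Arbp) and Rpl39l carried no member name. Alternatives were normexp background correction (offset 50) with loess, loess without subtraction, other centrings and a joint fit in limma 3.58.1 (R 4.3.3). Further ones were the value table, outlier spots kept, 1 value per gene name, current RefSeq symbols, and only probes well above background. That last filter kept 112, 112 and 111 of the 112 members, so nearly all probes with a signal under 1000 stayed in. The scripts (Python 3.11.15) were tested on simulated data. The number of arrays limits the precision.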

Additional observations from a re-analysis of the deposited data

Results flagged for a closer look

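In 6 of 112 member probes (5.36%) both arrays of ME vs CONT had one sign and both arrays of IE vs CONT the other, against 4.29% of all probes. The difference between the comparisons was not tested, and they share the CONT pool. The IE minus ME difference of the log2 ratios was 0.0218 for Rpl10, -0.0244 for Rpl21, 0.0589 for Rpl36a, 0.0377 for Rplp1, 0.0680 for Rps27 and -0.0898 for Rps4x. On the slide that set IE directly against ME, all 6 probes had opposite signs on the 2 arrays. Rps27, a small subunit protein, read -0.046 and -0.054 in ME vs CONT, 0.016 and 0.021 in IE vs CONT, and -0.090 and 0.048 in IE vs ME.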

How the results depend on the processing

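Over 11 alternatives that keep both arrays the median log2 ratio of the members ran from -0.0202 to -0.0002 in ME vs CONT, from -0.001 to 0.0097 in IE vs CONT and from -0.0122 to -0.0004 in IE vs ME. In IE vs CONT it moved from 0.0086 to 0.0048 with normexp and loess, to 0.0054 with loess without background subtraction and to -0.0010 in the joint fit. On single arrays, which keep the dye component, it ran from -0.0177 to 0.0041 in ME vs CONT, from 0.0002 to 0.0045 in IE vs CONT and from -0.0810 to 0.0569 in IE vs ME. The count of members higher on both arrays in ME vs CONT went from 5 to 10 with loess without background subtraction and to 3 with 1 value per gene name. With 1 value per gene name, the members lower in IE vs CONT went from 12 to 6 and those higher in IE vs ME from 4 to 2; centring on probes well above background took the latter to 1. The cause was not tested. The count of called members was 0 to 1 in IE vs ME when 1 array was left out, the 1 being Rpl37a on array 1. That count asked for either fold limit and the p limit on 1 array only, which is looser than the rule for pairs. No share over all probes is given for it, so it says little by itself. The dim Rpl28 probe in IE vs ME went from -0.32 to -0.2253 with normexp and loess and to -0.1601 without background subtraction. Among counts of members under all alternatives, 84 stayed within 1.5 times their value and 6 did not. Many of the 84 could hardly move. The called counts were 0 at the start, the value table holds the same ratios, and the background filter dropped at most 1 probe. The 84 is thus no measure of robustness either. Of the ratios of named members, 1195 moved by less than 1 SD between arrays and 47 by more. That SD holds the dye component, and leaving out 1 array always moves a mean by less than it. The 1195 therefore says little about robustness. No paired analysis was possible because, going by the methods, each comparison holds 1 pool per group, so that no test could be made.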
